A study of Mus musculus with 6 samples.

Results

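ZBTB43 ChIP–seq regions that were called against input chromatin but not against IgG, and with 491K cells but not with 100K cells, are described here. They were chosen by overlap calls between peak lists: of the 2043 peaks of the 491K ZBTB43 library against its input, 891 (43.6%) shared no base with any of the 897 peaks of the same library against IgG, nor with any of the 630 peaks of the 100K ZBTB43 library against its own input. They are called 491K input-only peaks below, and K stands for 1000 cells. The study's text gives a smaller number of input-controlled peaks than this deposited list holds. The reason was not determined, so these regions need not all belong to the study's own peak set. All libraries were made from wild-type male germ cells of fetuses at 15.5 dpc that carried the Pou5f1-EGFP (Oct4-EGFP) reporter transgene, strain label B6;CBA-Tg(Pou5f1-EGFP)2Mnn/J, and that were sorted by EGFP. Per the study's methods, the 491K chromatin came from combined batches of frozen cells and the 100K cells were handled apart, so the cell number cannot be told apart from the preparation. Of 6 libraries, 2 were ZBTB43 precipitates (491K and 100K cells), 2 were IgG controls (415K and 100K cells) and 2 were inputs (491K and 100K cells). Each group held 1 library, so no value has a replicate error, no p-value is given, and peaks within a library are not replicates of a condition. Intervals are 95% Wilson intervals for shares and 95% Newcombe intervals for differences of shares, and both cover counting error only. The other 1152 peaks of the same list were of 3 kinds: 274 lacked IgG support but recurred with 100K cells, 548 had IgG support but did not recur, and 330 had IgG support and recurred.

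ZBTB43 is a zinc finger protein of the BTB family of DNA-binding factors, and the study examined its relation to Z-DNA, the left-handed form of the double helix. Z-DNA forms most readily where purines and pyrimidines alternate, as in CA and CG dinucleotide repeats. Repeats of A and G put purines on one strand and pyrimidines on the other, and do not alternate. Prospermatogonia are the fetal male germ cells in which DNA methylation is laid down anew.

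The sequences below show the main kinds of 491K input-only peak, each as the plus strand of GRCm38 (mm10) from the first to the last base of the peak. The first 2 are among the highest-scoring peaks whose longest tandem run is a CA run, which reads as TG on the other strand, and the next pair are the highest-scoring with a CACG tract, with the longest purine–pyrimidine alternating tract in capitals in all 4. Then come the 2 highest-scoring peaks with an AG run and no alternating tract, and the highest-scoring peak with an AGAGG run, with the longest perfect run in capitals. The last 4 lie in coding exons, with the coding bases in capitals.
CA run, chr19:27568991-27569115, plus strand, score 1301: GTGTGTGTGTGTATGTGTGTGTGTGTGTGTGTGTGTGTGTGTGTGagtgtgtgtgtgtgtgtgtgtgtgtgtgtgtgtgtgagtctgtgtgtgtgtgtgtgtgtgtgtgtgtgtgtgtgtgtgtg
CA run, chr9:58624756-58624885, plus strand, score 1169: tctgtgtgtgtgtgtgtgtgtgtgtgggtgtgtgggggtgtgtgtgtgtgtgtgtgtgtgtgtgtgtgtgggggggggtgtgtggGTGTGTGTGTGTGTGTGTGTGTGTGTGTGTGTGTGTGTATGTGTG
CACG tract, chr17:46905443-46905583, plus strand, score 719: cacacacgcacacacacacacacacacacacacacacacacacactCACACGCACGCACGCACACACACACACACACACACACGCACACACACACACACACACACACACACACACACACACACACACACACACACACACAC
CACG tract, chr11:58751391-58751532, plus strand, score 717: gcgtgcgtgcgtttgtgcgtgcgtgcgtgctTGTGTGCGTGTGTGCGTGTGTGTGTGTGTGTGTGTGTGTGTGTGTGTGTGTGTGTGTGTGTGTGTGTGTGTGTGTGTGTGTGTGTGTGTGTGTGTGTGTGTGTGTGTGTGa
AG run, chr14:93064717-93064844, plus strand, score 1113: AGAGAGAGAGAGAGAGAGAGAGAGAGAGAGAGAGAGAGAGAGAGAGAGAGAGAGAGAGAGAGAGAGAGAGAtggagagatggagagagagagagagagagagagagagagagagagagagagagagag
AG run, chr5:77690000-77690118, plus strand, score 859: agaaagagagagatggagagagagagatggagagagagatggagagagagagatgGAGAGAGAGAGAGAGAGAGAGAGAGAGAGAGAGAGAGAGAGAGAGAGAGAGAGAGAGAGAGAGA
AGAGG run, chr10:121024219-121024338, plus strand, score 348: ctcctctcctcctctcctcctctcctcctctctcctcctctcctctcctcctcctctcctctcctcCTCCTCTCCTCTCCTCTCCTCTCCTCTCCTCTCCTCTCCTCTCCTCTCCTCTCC
Myh4 coding exon, chr11:67248509-67248676, plus strand, score 408: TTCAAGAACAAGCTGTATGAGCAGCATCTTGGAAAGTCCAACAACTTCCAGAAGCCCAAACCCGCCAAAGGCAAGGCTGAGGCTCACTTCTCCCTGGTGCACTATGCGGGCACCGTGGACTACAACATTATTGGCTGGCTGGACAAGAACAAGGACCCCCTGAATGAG
Myh7 coding exon, chr14:54982179-54982310, plus strand, score 233: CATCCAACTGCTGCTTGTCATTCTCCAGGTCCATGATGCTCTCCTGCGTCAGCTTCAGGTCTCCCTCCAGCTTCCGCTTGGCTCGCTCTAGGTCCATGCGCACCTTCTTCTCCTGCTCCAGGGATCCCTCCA
Tubb3 coding exon, chr8:123421446-123421614, plus strand, score 113: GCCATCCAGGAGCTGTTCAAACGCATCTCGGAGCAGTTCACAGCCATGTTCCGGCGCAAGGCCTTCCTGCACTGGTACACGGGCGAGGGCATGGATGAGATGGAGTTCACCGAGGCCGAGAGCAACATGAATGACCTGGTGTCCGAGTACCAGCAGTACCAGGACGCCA
Zbtb43 coding exon, chr2:33454445-33454645, plus strand, score 59: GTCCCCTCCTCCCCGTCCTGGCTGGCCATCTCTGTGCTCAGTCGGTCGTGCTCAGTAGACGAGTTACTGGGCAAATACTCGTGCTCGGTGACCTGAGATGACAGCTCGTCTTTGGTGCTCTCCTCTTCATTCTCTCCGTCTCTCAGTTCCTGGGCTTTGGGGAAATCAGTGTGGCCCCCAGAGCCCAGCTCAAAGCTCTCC

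The first 7 of these sequences are repeats over nearly their whole length, while the 4 from coding exons hold no tandem run of 20 bp. In the peaks at chr19:27568991-27569115 and chr9:58624756-58624885, the repeat is broken at several places, so that several runs follow one another inside 1 peak. The Myh4, Myh7, Tubb3 and Zbtb43 peaks are shown because the share of peaks in coding exons differed between the 491K input-only peaks and the other kinds, as described below.

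The 491K input-only peaks had a median score of 116 (quartiles 70.0 and 233, range 18 to 1433). The score grows with the confidence of the call, a score of 10 for each −log10 unit of its q-value. Of the 891 peaks, 528 scored at least 100 and 43 at least 500. Their median width was 143 bp (quartiles 127 and 175), and 84.4% were 100 to 200 bp wide. In the peaks without IgG support that recurred, the median score was 393 and the median width 162 bp. In those with IgG support the medians were 152 and 309 bp for peaks seen with 491K cells only, and 926 and 406 bp for peaks that recurred. Peaks were assigned by calls that depend on score and width, so these values describe the selection and were not tested.

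**Figure D1:**
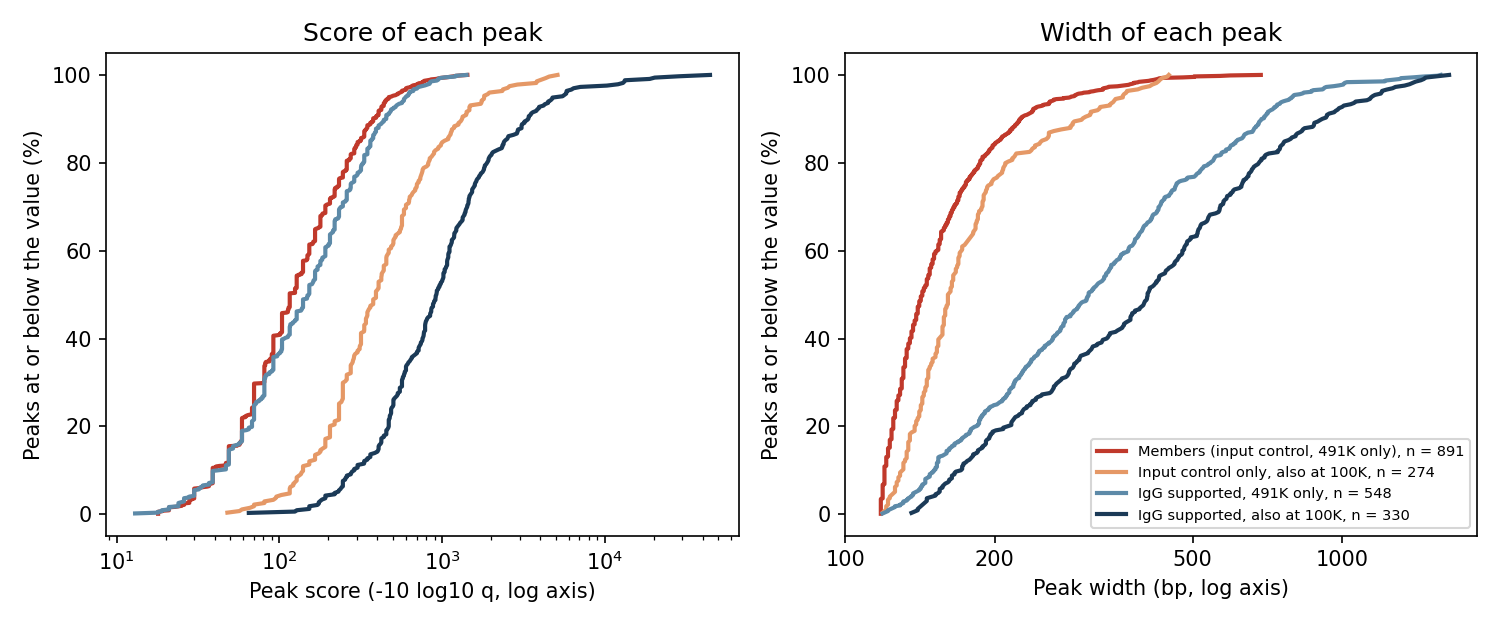
Cumulative share of peaks (vertical axis, %) by score (left, −10 log10 q on a log axis) and by width (right, bp on a log axis) for the 491K input-only peaks (red, n = 891) and the other 3 kinds of peak of the same list. The red curve has a median score of 116 and a median width of 143 bp, and lies left of the other 3 curves over most of the widths, which have medians of 162, 309 and 406 bp.

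The selection barred any overlap of these regions with an excluding peak. Whether they lay farther from such peaks than randomly placed regions would was not tested, so the gaps are a description. The median gap from a region to the nearest excluding peak was 619 kb, and 12 of 891 regions lay within 1000 bp of one. The nearest were chr17:49940959-49941142 (score 702), 139 bp from a peak of the 100K list, chr4:46219270-46219393 (score 36), 139 bp from a peak of the IgG-controlled list, and chr16:91338896-91339089 (score 39), 220 bp from one. Just outside the selection were chr2:33453699-33453954 (score 70), which shared 19 bp with a peak of the 100K list, chr7:141767716-141767959 (score 54), which shared 63 bp with an IgG-controlled peak, and chr3:133378563-133378765 (score 92), which shared 78 bp with a peak of the 100K list. The lowest score among the selected regions was 18, at chr11:20190440-20190585, chr11:36771684-36771865 and chr14:99288199-99288318. None of the 891 overlapped the 18 peaks of the 100K library against IgG. That library also gave an excluding list, so this count is no separate result.

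Alternating sequence was frequent in the 491K input-only peaks, but less frequent than in the other peaks of the list. An alternating tract, that is 20 bp or more of strictly alternating purines and pyrimidines, was held by 589 of 891 peaks (66.1%, 62.9 to 69.1%). The share over all 2043 peaks was 77.1%, and that of the other 1152 peaks was 85.6%. The difference was -19.5 percentage points, with an interval of -23.2 to -15.8. Among windows of 143 bp laid end to end over the whole genome, 2.77% held such a tract. The recurring peaks without IgG support held a tract in 72.3%, and the interval of the difference from them, -12 to 0.195 points, included 0. Against the IgG-supported peaks the difference was -20.6 points (-24.7 to -16.2) for those seen with 491K cells only and -28.7 points (-32.4 to -24.5) for those that recurred.

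CA tracts, of at least 10 tandem CA or TG dinucleotides, were held by 547 of the 491K input-only peaks (61.4%, 58.2 to 64.5%). The share was 69.9% over the whole list and 76.5% in the other peaks, a difference of -15.1 points (-19.1 to -11.0). This difference moved with peak width and score. In a window of 200 bp at every peak centre the shares were 64.2% and 62.2%, a difference of 2.04 points with an interval of -2.18 to 6.23. Among peaks with scores within the quartiles of the 491K input-only peaks the difference was -6.07 points (-12.5 to 0.538). For the alternating tracts as a whole the same settings gave -9.98 points (-13.8 to -6.16) and -16.9 points (-22.5 to -11.0). Of genome windows of 143 bp, 1.39% held a CA tract.

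CACG tracts, in which the 4-bp unit stands at least 2 times in a row, whatever its phase and strand, were held by 46 of the 491K input-only peaks (5.16%, 3.89 to 6.82%). The share was 9.06% over the list and 12.1% in the other peaks, and the difference was -6.90 points (-9.28 to -4.49). In the 200-bp windows it was -3.77 points (-6.07 to -1.42). The IgG-supported peaks that recurred had the highest share, 17.9%. Of genome windows, 0.243% held one.

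**Figure D2:**
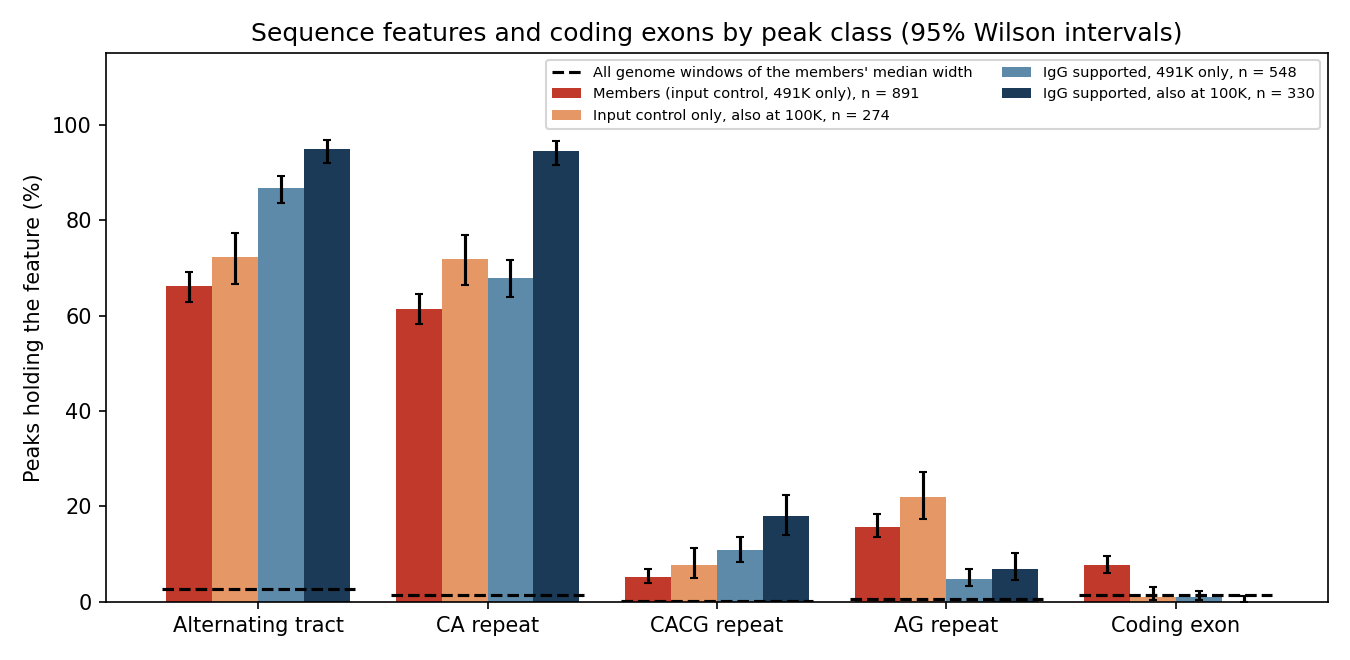
Share of peaks (vertical axis, %) holding an alternating tract, a CA repeat, a CACG repeat, an AG repeat, or with the centre in a coding exon, for the 491K input-only peaks (red) and the other 3 kinds. Bars are shares with 95% Wilson intervals, and dashed lines are the shares of all genome windows of 143 bp. The red bars are the lowest for the 3 alternating features and the highest for coding exons (7.74%).

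The longest perfect tandem run was then taken for each peak, with units of 1 to 6 bp and runs of at least 20 bp. A CA run was the longest in 525 of 891 peaks (58.9%), with a median length of 39.0 bp. An AG run was the longest in 119 (13.4%, 11.3 to 15.7%), with a median length of 47.0 bp and a median score of 166. The pentanucleotide AGAGG followed in 23 peaks (2.58%), with a median run of 71.0 bp, then ACACAG in 12 and AGAT in 7. No run of 20 bp was found in 162 peaks (18.2%). Over the whole list of 2043 peaks these shares were 66.6% for CA, 9.01% for AG, 1.37% for AGAGG and 16.0% without a run. Outside coding exons, 132 of the 491K input-only peaks (14.8%) had a longest run of A, or of A and G, on 1 strand and no alternating tract. This kind was counted in these peaks only, so no share over the list stands beside it.

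AG runs of at least 20 bp, counted whether or not they were the longest, were present in 141 of the 491K input-only peaks (15.8%, 13.6 to 18.4%). The share was 12.2% over the list and 9.46% in the other peaks, a difference of 6.36 points (3.47 to 9.35). It was 21.9% in the recurring peaks without IgG support and 4.74% and 6.97% in the IgG-supported peaks seen with 491K cells only and in those that recurred. The differences from the latter pair were 11.1 points (7.99 to 14.0) and 8.86 points (4.89 to 12.3). The difference from the recurring peaks without IgG support had the opposite sign, -6.07 points (-11.8 to -0.913). AGAGG as the longest run was found in 28 peaks of the list, 23 of them 491K input-only peaks, 5 recurring peaks without IgG support, and none with IgG support. Of genome windows, 0.657% held an AG run.

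**Figure D3:**
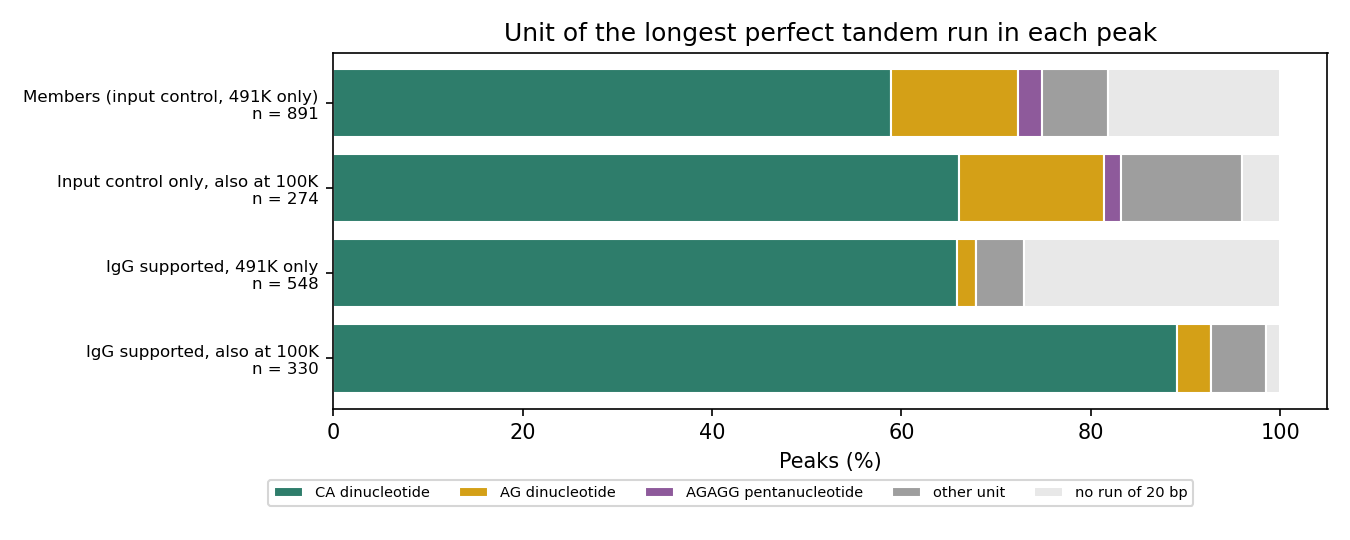
Unit of the longest perfect tandem run in each peak (horizontal axis, % of peaks) for the 4 kinds of peak, one bar each. AG dinucleotide runs (yellow) took 13.4% of the 491K input-only peaks and 2.01% and 3.64% of the IgG-supported peaks.

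The repeats of the 491K input-only peaks often continued past the peak edges. In the 644 whose longest run was a CA or AG run, the base 2 bp away was the same at 91.1% of positions 3 to 22 bp inside the peak edges, at 62.9% of those 1 to 20 bp outside, and at 35.0% of those 81 to 100 bp outside. The corresponding values were 92.4%, 54.4% and 33.1% in recurring peaks without IgG support. They were 69.0%, 50.3% and 34.1%, and 64.5%, 40.4% and 31.5%, in the IgG-supported peaks seen with 491K cells only and in those that recurred. Peak ends are part of the calls by which the regions were selected, so these profiles are a description.

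**Figure D4:**
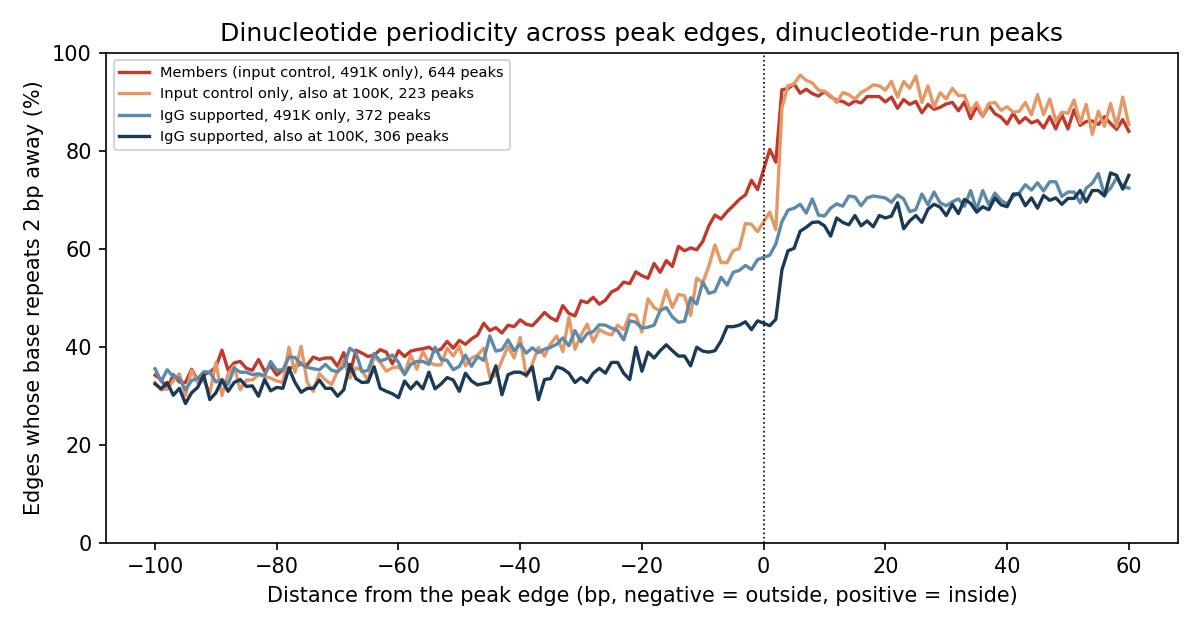
Dinucleotide periodicity at peak edges: the share of edges (vertical axis, %) at which a base equals the base 2 bp further out, by distance from the edge (horizontal axis, bp, negative outside and positive inside). Both ends of each peak are averaged, over peaks whose longest run is a CA or AG run. The red curve of the 491K input-only peaks rises to above 90% inside the edge and falls to 35.0% at 81 to 100 bp outside.

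The longest alternating tract usually reached the end of the peak. In 405 of the 589 peaks with a tract (68.8%) it lay within 2 bp of an edge, and in 345 (58.6%) it ran on past the edge. These shares were 62.6% and 44.9% of 198 recurring peaks without IgG support. They were 39.6% and 35.2% of 475 IgG-supported peaks seen with 491K cells only, and 31.6% and 20.1% of 313 that recurred. The median distance between the centre of the peak and that of its longest tract was 34.5 bp (quartiles 12 and 50.5), and the tract took up a median of 35.1% of the peak. Lower-case, that is repeat-masked, sequence filled 762 of the 891 peaks (85.5%) from end to end, against 14.1% of genome windows. Heavy masking was general in the list: the masked share of a peak had a median of 100% over all 2043 peaks. The lower quartile of the masked share was 95.4% over the list and 100% in the recurring peaks without IgG support.

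Repeats and coding exons took opposite positions along the score. Among the 265 peaks of the lowest score group (18 to 70, up to the lower quartile), 44.2% held a CA tract (38.3 to 50.2%), 7.55% an AG run (4.94 to 11.4%) and 15.5% had the centre in a coding exon (11.6 to 20.3%). Among the 211 of the highest group (234 to 1433, above the upper quartile), these shares were 76.8% (70.6 to 82.0%), 23.2% (18 to 29.4%) and 0.948% (0.260 to 3.39%). CACG tracts were held by 5.66% and 3.79%, with intervals of 3.46 to 9.13% and 1.93 to 7.30% that overlapped. The score set these groups, and the shares are given without a test.

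Of the 10 highest-scoring regions, 7 had a CA run as the longest run and 2 an AG run. After a score of 1301 at chr19:27568991-27569115, between genes, came, among others, 1169 at chr9:58624756-58624885, in an intron of Nptn, which encodes a cell adhesion protein of the immunoglobulin superfamily. The AG-run peaks were at chr14:93064717-93064844 (score 1113), in an intron of the protocadherin gene Pcdh9, and at chr5:77690000-77690118 (score 859), between genes. Another 4 of the CA-run peaks, with scores of 1058, 984, 948 and 927, lay between genes at chr1:184397677-184397808, chr10:21863617-21863802, chr12:54510288-54510406 and chr11:116726007-116726130. The longest alternating tract in the AG-run pair did not exceed 3 bp.

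The highest score of all, 1433, belonged to a region without any tandem run. It was chr18:73533408-73533537, 130 bp with 16.2% of bases masked, at the annotated gene n-R5-8s1, a copy of the 5.8S ribosomal RNA. Ribosomal RNA genes are present in many copies. Reads could be split among them, which was not tested.

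The 5 longest alternating tracts did not have high scores. They measured 359 bp at chr10:102885587-102885945 (score 70, between genes), 330 bp at chr2:80005505-80005834 (score 70, intron of Pde1a, a cyclic nucleotide phosphodiesterase) and 302 bp at chr1:64996829-64997130 (score 104, in a promoter). The other two were 300 bp at chr13:89550849-89551148 (score 150, intron of Hapln1, which encodes a link protein of the extracellular matrix) and 237 bp at chr7:45440441-45440722 (score 70, promoter region of Gys1, glycogen synthase). In the first 4 the tract filled the whole peak.

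Coding exons, like AG runs, were more frequent in the 491K input-only peaks than in the rest of the list. The centre of 69 peaks (7.74%, 6.16 to 9.69%) lay in coding sequence, in 63 genes, against 3.82% of all 2043 peaks, 0.781% of the other 1152, and 1.38% of genome windows. The difference from the other peaks was 6.96 points (5.24 to 8.94). Of 78 peaks of the list in coding exons, 88.5% were 491K input-only peaks, while 3 were recurring peaks without IgG support, 6 were IgG-supported peaks seen with 491K cells only, and none of 330 (up to 1.15%) were IgG-supported peaks that recurred. None of the 69 held an alternating tract, 1 held a tandem run of 20 bp, and each was masked over less than 50% of its length. At least 95% of the bases were coding in 65 of them, and 49 lay wholly inside 1 coding exon. Their median score was 59.0 (range 21 to 408), their median width 163 bp and their median GC content 58.2%, against 49.7% for all 491K input-only peaks.

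With the coding-exon peaks left out of both sets, an alternative added after the data were seen, 71.7% of the remaining 491K input-only peaks and 86.3% of the remaining other peaks held an alternating tract, a difference of -14.6 points (-18.3 to -11.0).

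Several coding-exon peaks fell in genes of the same family. The families counted here were picked after the genes were seen, so their counts are a description. Myosin heavy chains, the motor subunits of muscle and non-muscle myosins, held 8 peaks in 7 genes, with scores of 30 to 408. Potassium channel genes held 5 peaks in 4 genes (scores 30 to 81) and tubulin genes, which encode the subunits of microtubules, 5 peaks in 3 genes (scores 70 to 233). Histone genes held 2 peaks, in Hist1h2bm (score 88) and Hist4h4 (score 92). The myosin and potassium channel families were not particular to these peaks. Recurring peaks without IgG support lay in coding exons of Myh1 (score 701) and Myh4 (score 356). An IgG-supported peak seen with 491K cells only lay in a coding exon of the potassium channel gene Kcnh2 (score 179).

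There were 6 genes with 2 coding-exon peaks each. In Myh7, the slow muscle and cardiac myosin heavy chain, they were chr14:54982179-54982310 (score 233) and chr14:54988302-54988422 (score 81), which covered most of coding exons of 146 bp and 171 bp. In Tuba4a, an alpha-tubulin, they were chr1:75216341-75216489 (score 233) and chr1:75215989-75216114 (score 90), in 1 coding exon of 969 bp. In Bcl11b, a zinc finger transcription factor of T cells and neurons, they were chr12:107915449-107915708 (score 137) and chr12:107916610-107916770 (score 70), in 1 coding exon of 2012 bp. In Tubb3, the neuronal beta-tubulin, they were chr8:123420605-123421039 (score 116) and chr8:123421446-123421614 (score 113), in 1 coding exon of 1073 bp. In Kcnh1, a voltage-gated potassium channel, both scored 59, at chr1:192276920-192277038 and chr1:192413015-192413173. In Scn8a, a voltage-gated sodium channel of neurons, the scores were 39 at chr15:101013440-101013594 and 28 at chr15:101039704-101039850.

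Other coding-exon peaks with scores over 200 were those of Myh4, the fast muscle myosin heavy chain (408, chr11:67248509-67248676), Myh6, the cardiac alpha myosin heavy chain (401, chr14:54950325-54950566), and Chrna4, a subunit of the neuronal nicotinic acetylcholine receptor (233, chr2:181028955-181029179). In the neighbourhood of the Myh4 peak, Myh1 held 1 peak with its centre in a coding exon (128, chr11:67208967-67209105), and 2 whose centres were intronic but which contained 208 and 255 coding bases (scores 318 and 471). Myh8 and Myh13 held 1 each, with scores of 30 and 92.

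**Figure D5:**
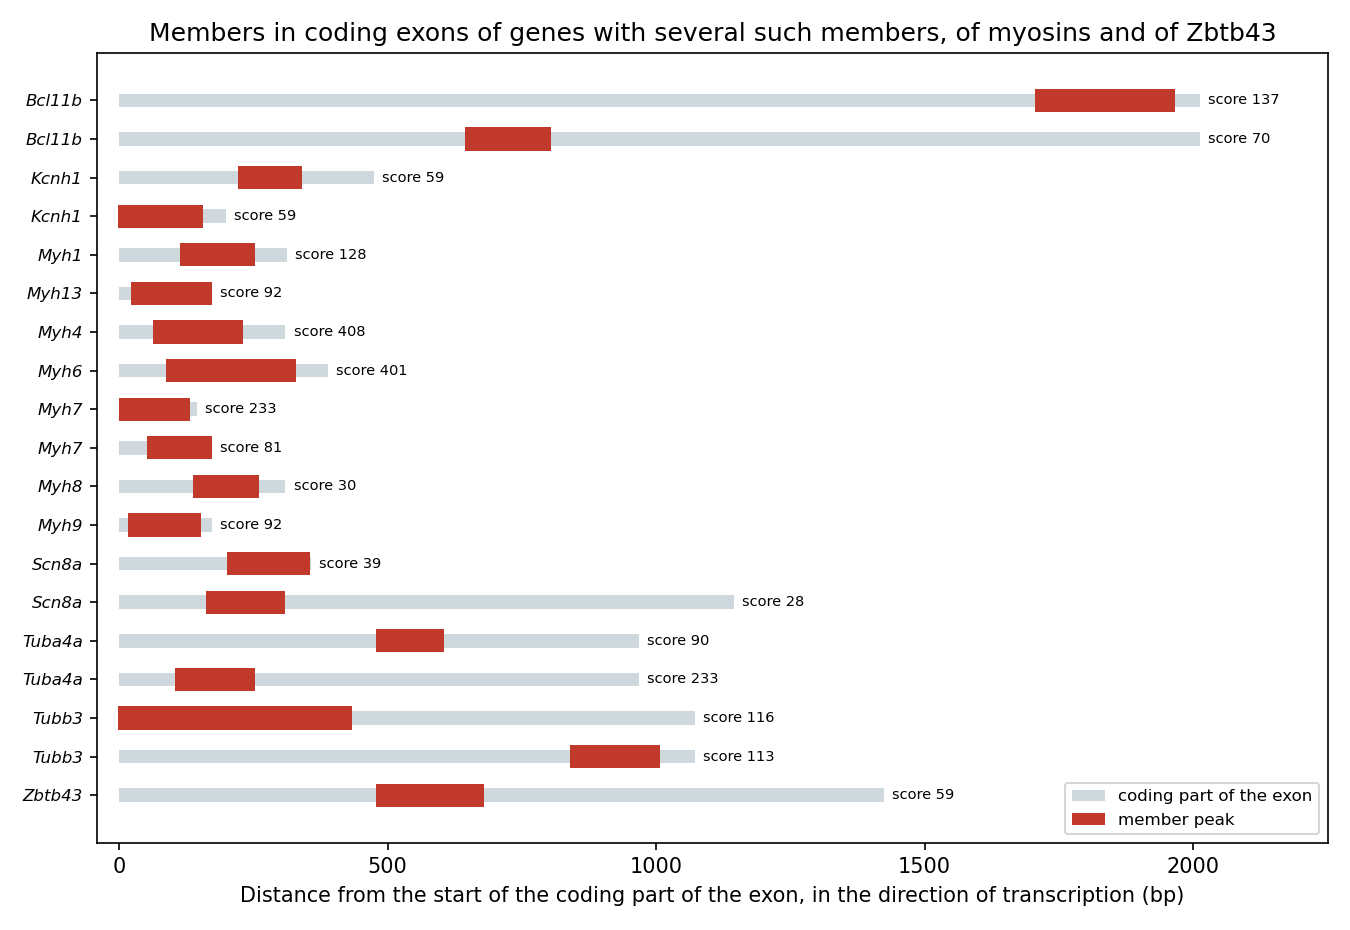
Position of 491K input-only peaks (red) along the coding part of their exon (grey), in bp from its start in the direction of transcription (horizontal axis), for genes with at least 2 such peaks, the myosin heavy chain genes and Zbtb43. The score is beside each bar. The peaks cover most of the short exons of Myh7, Myh9 and Myh13 and lie at different positions in the long exons of Bcl11b, Tuba4a, Tubb3 and Zbtb43.

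Many of these exons have related sequence in other genes. By BLAST against all annotated transcripts, 60 of the 69 coding-exon peaks aligned over at least 100 bp to a transcript of another gene, 18 of them at 90% identity or more and none at 100%. Identity to the best other gene was 94.1 to 99.3% for the 8 myosin peaks and 86.9 to 95.3% for the 5 tubulin peaks. Values at such exons are uncertain where reads could be placed at more than one copy, which was not tested. No alignment to another gene was found for 8 peaks. The part of related sequence in the result was not tested. Related sequence was not particular to the 69 peaks. The 9 other coding-exon peaks of the list all aligned over at least 100 bp to another gene, at 69.2 to 97.5% identity.

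Zbtb43 itself was among the genes with a coding-exon peak. The peak at chr2:33454445-33454645 (score 59, 201 bp) lay wholly inside a coding exon of 1424 bp and was 58.2% GC, with no masked base and no alignment in another gene. Another peak in the same exon, chr2:33453699-33453954 (score 70), recurred with 100K cells and was the peak just outside the selection that shared 19 bp with the 100K list.

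Outside coding exons, 23 of the 491K input-only peaks had neither a run nor full masking. Of these, 3 held coding bases, the 2 of Myh1 and 1 of Acta1, skeletal muscle actin (score 205, chr8:123892549-123892960, 315 coding bases). Acta1 was not particular to these peaks: an IgG-supported peak seen with 491K cells only lay in a coding exon of it (score 260). Another 491K input-only peak had its centre in an Acta1 coding exon (score 125). The other 20 of the 23 peaks included the 5.8S ribosomal RNA region. The median score of the 23 was 49.0, and 17 scored under 100. Among them, and named after their values were seen, were 2 regions within Zfhx4 (scores 30 and 49), 1 within Irx3os, the antisense transcript beside Irx3 (score 62), and 1 each within Tshz1 (score 68), Ola1 (score 70), Tmtc2 (score 116), Kcnip4 (score 21) and Mgmt (score 30). Antisense and overlapping genes cannot be told apart from peak positions.

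By their centres, 347 of the 491K input-only peaks lay in introns (38.9%, 35.8 to 42.2%), against 42.8% over the list and 45.8% in the other peaks, a difference of -6.89 points (-11.2 to -2.57). Among peaks within the quartiles of their scores it was -5.78 points, with an interval of -12.7 to 1.14. Promoters, the 3000 bp upstream of a start site, held 91 peaks (10.2%), exons outside promoters 54 (6.06%) and sequence between genes 399 (44.8%), beside 9.54%, 3.57% and 44.1% over the list. The exon count includes coding exons, and coding-exon peaks that also lay in a promoter of some transcript were counted as promoter here. In all, 375 protein-coding genes held at least 1 of the 891 peaks and 30 held 2 or more. The most, 7, fell in the gene model Gm20388, which also covers Acta1. Those with 3 were Gpc6, a glypican, Tenm2, a teneurin of neuronal adhesion, Zmiz1, a transcriptional co-regulator, Kcnh1 and Myh1. Few peaks lay side by side, and 23 had another within 10000 bp.

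The autosomes held 0.248 to 0.487 of these peaks per Mb, lowest on chromosome 7 (36 peaks) and highest on chromosome 8 (63 peaks). Chromosome X held 12 of the 887 peaks on autosomes and X (1.35%, 0.776 to 2.35%), beside 6.49% of the sequence length and 4.53% of the windows with a CA tract. The other peaks of the list had 1.04% on X. Chromosome Y held 4. The cells were male.

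Counts over gene lists, which were chosen with earlier results of these data known, were small. Of 24 sarcomere and calcium genes of striated muscle, 5 (Myh1, Myh4, Myh6, Myh7 and Myh8) held a 491K input-only peak, each with at least 1 in a coding exon, beside 1.71% of 21938 protein-coding genes with a peak within the gene and 0.287% with one in a coding exon. Of 28 neuronal adhesion, synapse and channel genes, 7 held one. These were in a coding exon in Scn8a and Nrxn2 (score 21), and elsewhere in Cntn2, Cacna1a, Cacna1e, Map2 and Grin2b. Cacna1a, the pore-forming subunit of a neuronal calcium channel, held 2 in introns, with alternating tracts of 71 bp (score 424) and 137 bp (score 128). Grin2b, a subunit of the NMDA glutamate receptor, held 1 with a tract of 54 bp (score 401). A peak of any kind of the list against input lay within 10000 bp of 8 of these muscle genes and 13 of these neuronal genes. For 491K input-only peaks the counts within 10000 bp were 6 and 7. Gene length was not taken into account, here or in the shares of all protein-coding genes. Of 16 genes for Z-DNA recognition, topology and break repair, only Zbtb43 held a 491K input-only peak.

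Of 18 genes for de novo methylation and the piRNA pathway, Dnmt3a, a de novo DNA methyltransferase, held the only one, beside 1.71% of 21938 protein-coding genes. The Dnmt3a peak was chr12:3847064-3847453 (score 140, 390 bp), in a promoter region, with an AG run of 27 bp and no alternating tract.

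The loci named by the study that were looked up numbered 17, most of them named for in vivo binding. Arid2, Ago2 and Rps6kl1 were named for affinity binding and for methylation missing from mutant sperm. Of the 17, 14 had a peak of the 491K list against input within 10000 bp. The in vivo loci were named from peaks of these same libraries, so this count is no separate result. Tshz2 and Hhat had a 491K input-only peak within 10000 bp, beside 2.36% of 21938 protein-coding genes. In Tshz2, a zinc finger transcription factor gene, it was chr2:169935931-169936074 (score 172, tract of 45 bp). At Hhat, the acyltransferase of Hedgehog proteins, there were 2: chr1:192728613-192728759 (score 179, tract of 29 bp) within the gene, and chr1:192491234-192491358 (score 116), whose tract of 125 bp filled the peak, within 10000 bp of Hhat and inside an intron of Kcnh1.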

How the data were processed

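ChIP–seq with antibodies against ZBTB43, with IgG and without precipitation (input) was performed by the authors on sorted prospermatogonia, 1 library per group, in 6 libraries. Per the study's methods and the submitters' processing notes, the authors trimmed reads with Trim Galore 0.6.0, aligned them with BWA 0.7.17 to mm10, kept properly paired reads of high mapping quality, removed duplicates, called peaks with MACS2 2.2.7.1 at a q-value of 0.05 for each ZBTB43 library against 1 control, and removed blacklisted regions. The mapping quality filter can remove reads that lie wholly inside repeats, the removal of duplicates limits the height of narrow peaks, and the input and IgG controls subtract different background. The 4 deposited lists hold 1 score per peak, taken here as −log10 of the q-value multiplied by 10, because the lowest score of 13 fits the threshold. The study states a minimum number of reads per library. The lists give no read depth, so the depth of each library is unknown here. No list holds a value of a single control library.

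Peaks were classed by overlaps of at least 1 bp. Sequence was read from GRCm38.p6 and genes from GENCODE M21, and all peaks ended within their chromosomes. Tracts, tandem runs (units of 1 to 6 bp, at least 20 bp) and locations were computed with Python 3.11.15, NumPy 2.4.6 and SciPy 1.17.1, and drawn with Matplotlib 3.10.9. The code was tested on simulated data. Genome windows of 143 bp, the median width, were laid end to end on all chromosomes, leaving out those with unknown bases. Coding-exon peaks were aligned to GENCODE transcripts with BLAST 2.17.0 (E-value 1e-05). The regions named were the 10 with the highest scores, the 5 with the longest tracts, those of genes with at least 2 coding-exon peaks, those at loci the study named, the 3 nearest to each side of the selection and the 3 with the lowest scores, and any others were named after their values were seen, while 1 region that met this rule is not reported here. Members and lists were chosen with earlier results of these data known. Alternatives were a reciprocal overlap of 50%, a gap of 500 bp, a q-value of 0.01, a restricted score range, 200-bp windows and other tract, exon and promoter definitions.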

Additional observations from a re-analysis of the deposited data

How the results depend on the processing

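The number of regions was 957 with a reciprocal overlap of 50%, 882 when peaks within 500 bp counted as shared, and 914 at a q-value of 0.01, where fewer peaks were left to exclude a region. Of 28 alternatives for the 5 differences of shares, 25 kept the direction and the side of 0 of the 95% interval. The difference in CA tracts fell from -15.1 points to -6.07 among peaks within the quartiles of the regions' scores, where the interval included 0, and turned to 2.04 in windows of 200 bp at the peak centres, where the regions' shorter width no longer counts. The difference in introns was -5.78 in the restricted score range, where the interval included 0. The 3 alternatives without coding-exon peaks, added after the data were seen, kept direction and side. With 1 library in every group, no samples could be paired and none left out. The depth of each library is unknown beyond the minimum that the study states. The absence of a call against IgG or with 100K cells therefore does not show that the signal was absent.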
